A study of Arabidopsis thaliana with 5 samples.

Results

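The genes described here read lower after 30 min of low oxygen than in air and were back near their air level after 60 min. The samples are entire seedlings of Arabidopsis thaliana (ecotype Col-0), and the genes were picked by a rule on the deposited log2 values. A probe set, the group of probes that reads 1 transcript or a few related ones, was a member if its value at 30 min of hypoxia lay at least 1 (2-fold) below both air arrays. Its mean over the 2 air arrays also had to be 6 or more, and its value at 60 min of hypoxia had to lie within 0.5 of that mean. Of 8247 probe sets other than controls, 105 met these conditions, which is 4.85% of the 2166 with a mean air value of 6 or more. RCA, SBPASE and LHCB4.1, 3 photosynthesis genes among the 105, were set aside by name, as the rule asks, and 102 members remained. The rule used the 30 min, 60 min and both air arrays, so differences among those arrays describe the members and carry no test.

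Per the labels' protocols, all seedlings had grown for 14 days on agar at 22 °C in days with 16 h of light. For hypoxia they were sealed in plastic bags under 0.2% oxygen and 99.8% nitrogen for 30, 60 or 240 min, and air samples were taken at 0 and 240 min. There is 1 array for each of these 5 treatments and times, with no transgene or mutant, and how many seedlings made up a sample is not stated in the labels. The 30 and 60 min arrays have no time-matched air array. None of the values below has a replicate error. The spread between the air arrays can be set beside them: their difference had an SD of 0.28 over the 2166 probe sets with a mean air value of 6 or more.

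Arabidopsis seedlings make their ATP by respiration in every organ and by photosynthesis in the green ones. Photosynthesis depends on nuclear genes whose proteins are imported into the plastid, where they bind chlorophyll in the thylakoid membrane, build pigments and pass reducing power from ferredoxin to thioredoxins and carbon-fixing enzymes. Low oxygen restricts respiration, and plants under it are known to turn to fermentation and to reduce costly synthesis. A whole-seedling extract holds shoot and root together, so that fewer cells of a type and less RNA per cell cannot be told apart here.

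Only 25 of the 102 members (24.5%) have 1 annotated gene, each a different one. The other 77 are unnamed here, against 1317 unnamed of the 2166 probe sets at the level required. The named members code for thylakoid and pigment proteins, enzymes of primary and lipid metabolism, wall and defensin-like proteins, membrane proteins and a light-signalling F-box protein. These groups were drawn up from textbook roles after the members were known, so their sizes support no theme.

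Among the thylakoid proteins, LHB1B2 (AT2G34420, also LHCB1.5) encodes a chlorophyll-binding antenna protein of photosystem II. It read 12.38 at 30 min, 14.05 at 60 min and 13.69 at 240 min of hypoxia, against 13.69 in air at both 0 and 240 min. The 30 min array alone was low, and the 240 min value did not differ from air within 0.01. AT1G51400, annotated as a small photosystem II protein, read 9.42, 10.63 and 11.29 at 30, 60 and 240 min of hypoxia, against 10.87 and 10.77 in air at 0 and 240 min. Here the 240 min array was the highest of the 5, by 0.47 above the air mean. AT2G26500, a putative PetM subunit of the cytochrome b6f complex that links the photosystems, read 9.79, 11.45 and 11.09, against 11.11 and 11.05 in air. TROL (AT4G01050), a thylakoid rhodanese-like protein that tethers ferredoxin-NADP reductase, read 8.56, 9.59 and 9.24, against 9.65 and 9.57 in air. All 4 thylakoid genes stood 1.06 to 1.39 below the air mean at 30 min and within 0.5 of it at 240 min.

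Pigment and redox genes of the plastid held the largest difference at 30 min among the named members. TRXF2 (AT5G16400), a thioredoxin f that switches Calvin cycle enzymes on in the light, read 7.61, 9.56 and 9.44 at 30, 60 and 240 min of hypoxia, against 9.28 and 9.61 in air at 0 and 240 min. That is 1.83 below the air mean at 30 min, a fold of 3.57, and the 60 and 240 min values lay between the air arrays. AT1G74470, a geranylgeranyl reductase that makes the phytyl tail of chlorophyll and tocopherol, read 9.13, 10.82 and 11.03, against 10.57 and 10.61 in air. LIL3:1 (AT4G17600), a light-harvesting-like protein that anchors this reductase in the membrane, read 5.99, 7.26 and 8.43, against 7.54 and 7.58 in air. Both genes of this reductase pair were lower at 30 min, by 1.46 and 1.57, and both stood above the air arrays at 240 min, LIL3:1 by 0.87 over the air mean and AT1G74470 by 0.44. LYC (AT3G10230), the lycopene cyclase that directs carotenoids to beta-carotene, differed from them at the late time. It read 8.02, 10.07 and 8.30, against 9.47 and 9.89 in air, so that it was low at 30 min and again at 240 min.

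**Figure D1:**
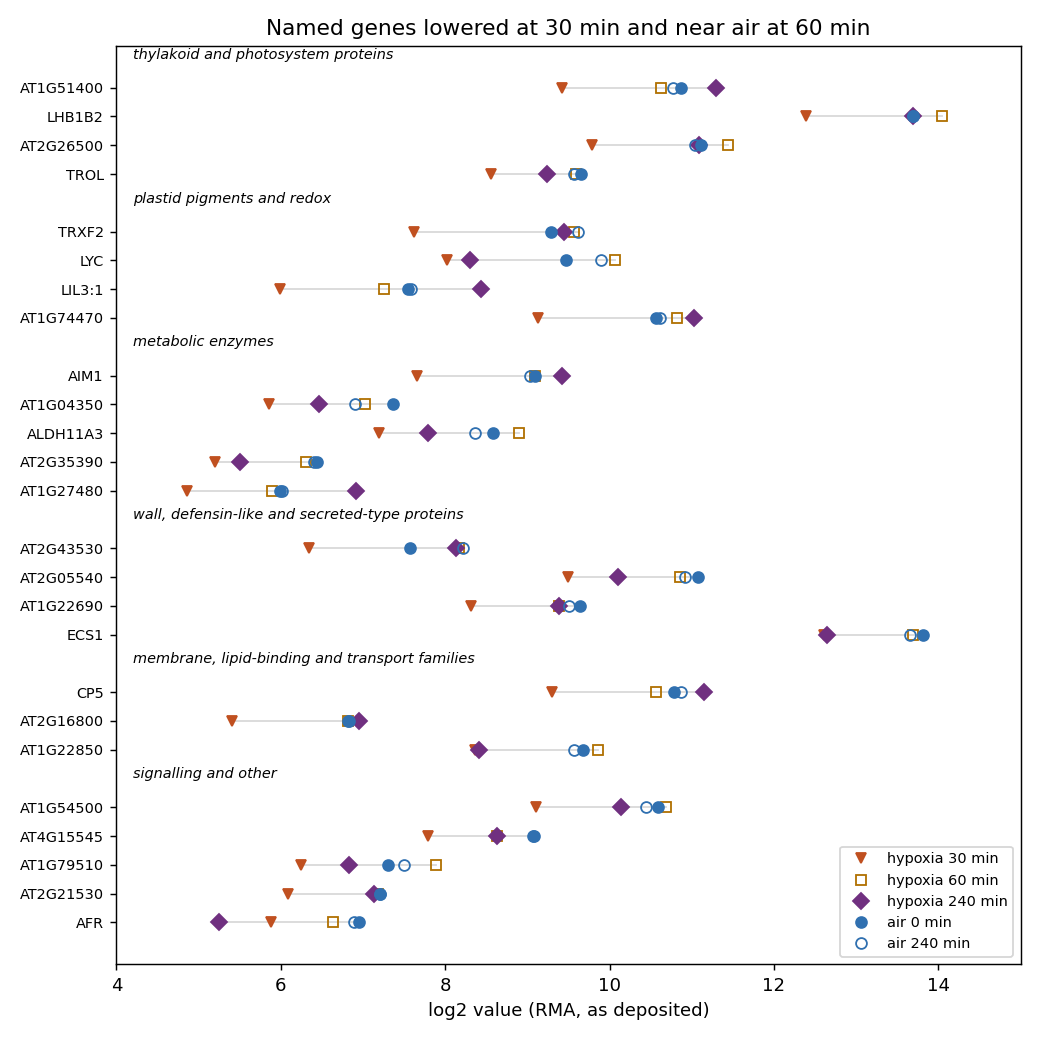
Log2 value of the 25 named members on each of the 5 arrays, 1 row per gene, grouped by known role (triangles, open squares and diamonds are hypoxia at 30, 60 and 240 min, and filled and open circles are air at 0 and 240 min; some markers overlap). The triangle lies left of the air circles in every row, as the rule requires, while the diamond lies on either side of air, from 1.67 below the air mean for AFR to 0.91 above it for AT1G27480.

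Of the enzyme genes, AIM1 (AT4G29010), a multifunctional protein of peroxisomal fatty acid beta-oxidation, read 7.66, 9.10 and 9.42 at 30, 60 and 240 min of hypoxia, against 9.10 and 9.03 in air at 0 and 240 min. ALDH11A3 (AT2G24270), the non-phosphorylating glyceraldehyde-3-phosphate dehydrogenase of the cytosol, read 7.20, 8.90 and 7.79, against 8.59 and 8.36 in air. AIM1 was 0.35 above the air mean at 240 min and ALDH11A3 was 0.68 below it. AT2G35390, a phosphoribosyl pyrophosphate synthase that feeds nucleotide synthesis, read 5.19, 6.30 and 5.51, against 6.44 and 6.40 in air. AT1G04350, of the 2-oxoglutarate-dependent dioxygenase family, read 5.86, 7.03 and 6.46, against 7.37 and 6.91 in air. AT1G27480, of the lecithin-cholesterol acyltransferase family, read 4.86, 5.89 and 6.91, against 5.98 and 6.02 in air. AT1G27480 is the member with the lowest air mean, at 6.00147. Its 30 min value is below that array's median of 5.13, where RMA compresses differences.

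Wall and secreted-type proteins were a further 4 members. ECS1 (AT1G31580), a cell wall protein, read 12.61, 13.69 and 12.65 at 30, 60 and 240 min of hypoxia, against 13.81 and 13.65 in air at 0 and 240 min. It was low on both the 30 and the 240 min array, by 1.13 and 1.08. AT2G43530, of the defensin-like family, read 6.34, 8.17 and 8.13, against 7.57 and 8.22 in air. Its air arrays differed by 0.64, so that its difference at 30 min was 1.23 from 0 min air and 1.87 from 240 min air. AT2G05540, a glycine-rich protein, read 9.50, 10.85 and 10.11, against 11.08 and 10.92 in air. AT1G22690, of the gibberellin-regulated GASA family, read 8.31, 9.39 and 9.39, against 9.64 and 9.50 in air.

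Membrane and lipid-binding proteins included CP5 (AT1G64720), with a lipid-binding START domain, which read 9.29, 10.57 and 11.15 at 30, 60 and 240 min of hypoxia, against 10.79 and 10.87 in air at 0 and 240 min. AT2G16800, of the nickel transport family, read 5.41, 6.82 and 6.95, against 6.83 and 6.81 in air. AT1G22850, of the SNARE-associated Golgi protein family, read 8.36, 9.86 and 8.41, against 9.68 and 9.56 in air. CP5 and AT2G16800 were near or above air at 240 min, and AT1G22850 was 1.21 below the air mean, close to its 30 min value.

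AFR (AT2G24540), an F-box kelch protein of far-red light signalling through phytochrome A, read 5.88, 6.63 and 5.25 at 30, 60 and 240 min of hypoxia, against 6.95 and 6.88 in air at 0 and 240 min. Its 240 min value was the lowest of the 5 arrays, 1.67 below the air mean, which is more than its 1.04 at 30 min. AT2G21530, which has an FHA phosphopeptide-binding domain, read 6.09, 7.18 and 7.14, against 7.20 in air at both times. AT1G54500, of the rubredoxin-like family of small iron proteins, read 9.11, 10.68 and 10.14, against 10.59 and 10.45 in air. Neither gene was 0.5 or more from the air mean at 240 min. The roles of AT4G15545 and AT1G79510 are not described here. AT4G15545 read 7.79, 8.63 and 8.63, against 9.07 and 9.08 in air, and AT1G79510 read 6.24, 7.89 and 6.83, against 7.31 and 7.49.

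Over all 102 members, the difference at 30 min ran from −2.67 to −1.00275 with a median of −1.39, a range whose upper end the rule fixes. In 67 members it was under 1.5 in size, in 31 it was between 1.5 and 2, and in 4 it was 2 or more. The lowest belongs to an unnamed probe set, 15624_s_at, which read 6.75, 9.44 and 9.92 at 30, 60 and 240 min of hypoxia, against 9.49 and 9.33 in air. At 60 min the median was 0.03, with 53 members above the air mean and 49 below it. At that time 42 members lay above both air arrays, 38 below both and 22 between them. Members thus lay on both sides of air in similar numbers, but with the arrays centred on the non-plant controls 89 were above and 13 below, with a median of 0.31. The air arrays differed by 0.3 or less in 77 members and by over 1 in 1, the unnamed probe set 12766_at, whose 240 min air value minus its 0 min air value was −1.38.

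**Figure D2:**
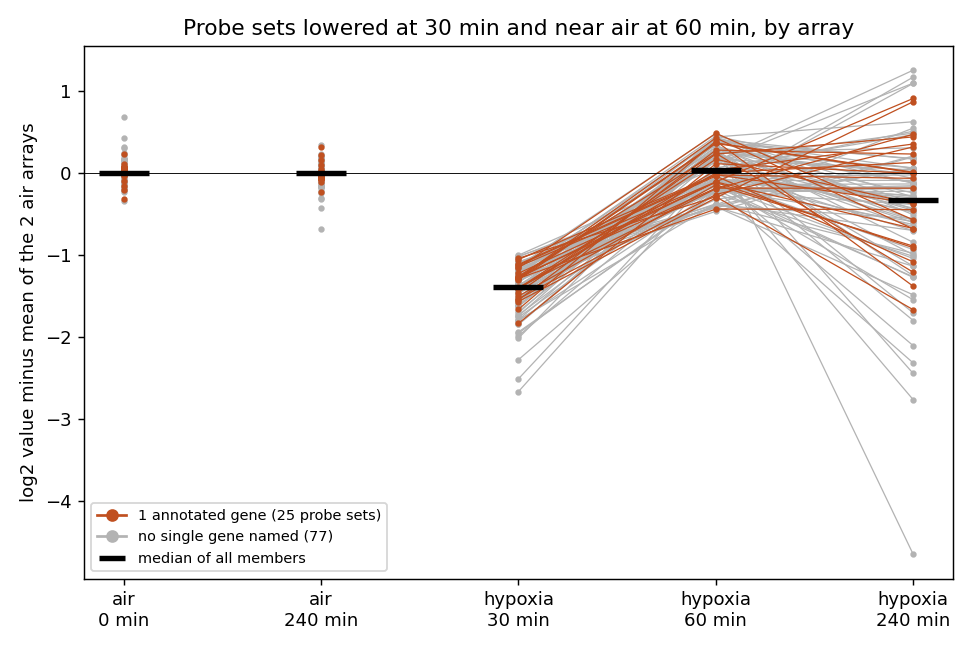
Log2 value minus the mean of the 2 air arrays for all 102 members on each array (1 point per probe set, lines joining the 3 hypoxia times, bars at the median; orange for the 25 with 1 gene, grey for the other 77). The members lie at or under −1.00275 at 30 min and within 0.5 at 60 min, as the rule requires, and spread from −4.65 to 1.25 at 240 min.

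The 240 min hypoxia array is the only one the rule did not use, though its differences are taken from the same air arrays. At that time the members had a median of −0.33 and quartiles of −0.81 and 0.04, against a median of −0.07 and quartiles of −0.39 and 0.17 over the 2166 probe sets at the level required. There were 54 members within 0.5 of the air mean (52.9%), against 68.5% of the 2166. A further 20 members (19.6%) were 1 or more below the air mean, against 6.19% of the 2166, and 4 (3.92%) were 1 or more above it, against 3.92%. By position alone, 65 members lay below both air arrays (63.7%), against 49.6%, and 24 above both (23.5%), against 32.3%. With 1 array, these shares carry no test. The share 1 or more above air equals the background, and the share below is higher than it. The background share below itself depends on the level in air, from 3.99% in the dimmest band to 10.9% in the brightest. Members were brighter in air, with a median of 9.43 against 7.47 over the 2166.

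A description of the members as lowered at 30 min only therefore does not hold for every member at 240 min. The rule itself fixes the 30 min value below the 60 min and both air values, so only the 240 min array could be lower. The 30 min value was the lowest of the 5 in 91 members and the 240 min value was the lowest in 11. Of the named members, LYC, AFR, AT1G22850 and ECS1 were 1 or more below the air mean at 240 min. The member furthest below air at that time was the unnamed probe set 20640_s_at, at 10.33, 12.17 and 7.15 at 30, 60 and 240 min of hypoxia, against 11.64 and 11.97 in air. The next was 14432_at, at 6.90, 9.48 and 6.65, against 9.20 and 9.62. At the other end, AT1G27480 and LIL3:1 were the named members furthest above air, at 0.91 and 0.87.

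**Figure D3:**
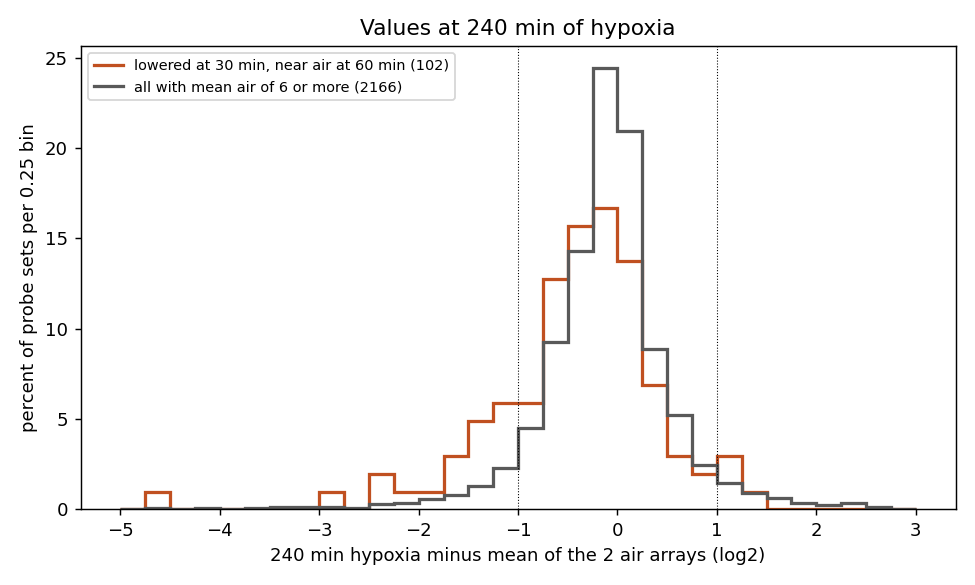
Distribution of the 240 min hypoxia value minus the mean of the 2 air arrays, in bins of 0.25, for the 102 members (orange) and the 2166 probe sets with a mean air value of 6 or more (grey), as a percent of each. Dotted lines mark 1 below and 1 above air. The orange outline lies above the grey one left of −1, with 19.6% against 6.19% there, and 3.92% of both lie right of 1.

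The nearest comparison is with probe sets that were as low at 30 min but lay over 0.5 from air at 60 min. At 60 min 39 of these 65 were above the air mean and 26 below it, with a median of 0.53. Their air arrays also differed more, with an SD of 0.57 for the difference, against 0.29 for the members. The members had a median of −1.39 at 30 min and −0.33 at 240 min, and 19.6% of them were 1 or more below air at 240 min. The 65 probe sets of the comparison had a median of −1.44 at 30 min and −0.80 at 240 min, and 29 of them (44.6%) were 1 or more below air at 240 min. Another 75 probe sets mirrored the members, with 30 min at least 1 above both air arrays and 60 min within 0.5. Their median at 240 min was 0.07, with 1 of them 1 or more below air and 4 as much above. The differences between these sets were not tested, since all come from the same 5 arrays.

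Membership became more frequent with the signal in air. Among probe sets with an air mean of 6 to 8, 29 of 1328 (2.18%) were members. The shares were 32 of 568 (5.63%) from 8 to 10, 27 of 206 (13.1%) from 10 to 12, and 14 of 64 (21.9%) at 12 or more. Before the condition on 60 min, 7.85% of the 2166, and 2.1% of all 8247, were at least 1 below both air arrays at 30 min, going from 3.92% in the lowest band to 29.7% in the highest. The highest band as a whole was lower at 30 min, with a median of −0.80 over its 64 probe sets, while the median of the lowest band was −0.03. At 240 min, 8 of the 29 members of the lowest band and 5 of the 14 of the highest were 1 or more below air, against 3.99% and 10.9% of all probe sets in those bands. In the middle bands it was 4 of 32 and 3 of 27, close to the 9.51% and 9.71% of all probe sets there.

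**Figure D4:**
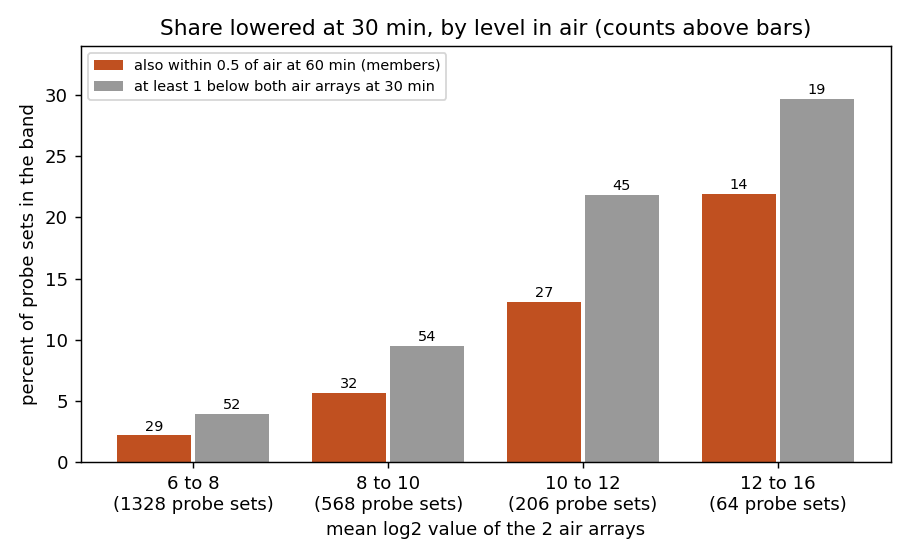
Percent of probe sets in 4 bands of mean log2 value in air that were at least 1 below both air arrays at 30 min (grey) and that were also within 0.5 of air at 60 min and so members (orange), with counts above the bars. Both shares go up with the signal in air, the orange ones from 2.18% to 21.9%.

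All 3 hypoxia arrays differed from air in some of their controls. At 30 min the plant GAPDH control probe sets were higher than the air mean by 1.301 to 1.434 and the ubiquitin ones by 1.33 to 1.56. The other plant controls, for actin, 25S rRNA and 5S rRNA, were nearer to air, at 0.09, 0.30 and 0.07. The 9 non-plant hybridisation controls differed by −0.02 to 0.62. At 60 min all 9 non-plant controls were below the air mean, at −0.52 to −0.05. The GAPDH probe sets were then at −0.79 to 0.0004 and the ubiquitin ones at −0.27 to 0.08. At 240 min of hypoxia the 25S and 5S rRNA controls were higher by 1.55 and 1.0017, and the mouse controls IL4, IL2 and IL10 by 1.33, 0.93 and 0.88. The 3′ GAPDH probe set minus the 5′ one was 0.69, −0.23 and 1.97 at 30, 60 and 240 min of hypoxia, against 0.57 and 0.55 in air at 0 and 240 min. For ubiquitin the same difference was 2.15, 1.67 and 2.39, against 1.96 and 1.89 in air, so the 2 control pairs differed in size at 240 min. The part of these control differences in the members' values at any time was not tested. With every array centred on the 9 non-plant controls, the median at 30 min was −1.72 for the members and −0.34 for all probe sets, and 68 of the 102 still met the rule.

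Of the 25 named genes, 5 have further probe sets that did not meet the rule, 6 in all. The second probe set of LYC was 1.12 below the air mean at 30 min, 0.73 above at 60 min and 1.69 below at 240 min. That of CP5 was 1.36 below at 30 min but 1.51 above at 60 min and 0.81 below at 240 min, where its member was 0.32 above. A second one of LHB1B2, with an air mean of 6.04, was 0.75 below at 30 min, 0.22 above at 60 min and at −0.05 at 240 min. The other probe sets of AT2G35390 were 1.12 and 0.80 below at 30 min and 0.85 and 0.86 below at 240 min. For AIM1 the other read 5.07 at 30 min, 0.12 below its air mean of 5.19. That level is near the array median, where RMA compresses differences, so this probe set could hardly show the member's drop. Except for AIM1, the further probe sets were thus below the air mean at 30 min by 0.75 or more. The lower quartile at 30 min over the 2166 probe sets with a mean air value of 6 or more was −0.46. For CP5 the probe sets disagreed at 60 and 240 min.

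The lists of related genes give the surroundings of the named members, and their 30 min values come from the contrast the rule used. Of 48 listed genes of the photosynthetic light reactions, which serve as shoot markers, 7 were measured by a named probe set. All 7 were below the air mean at 30 min, with a median of −0.93, and 3 of them, PSAN, LHB1B2 and LHCB4.1, by 1 or more. LHB1B2 was the only member among them, and the medians at 60 and 240 min were −0.02 and 0.0019. The 60 min median hides a spread: PSAN and PSBY were at −1.46 and −0.88, about as low as at 30 min. PSAE-1, LHCB4.1, PSBW, LHCB4.3 and LHB1B2 were at −0.47, −0.02, 0.26, 0.29 and 0.36 at 60 min. Of 36 genes of the Calvin cycle and photorespiration, 5 were measured, 5 were below the air mean at 30 min and 4 by 1 or more, with medians of −1.63, 0.25 and −0.55 at 30, 60 and 240 min. None is a member: SBPASE and RCA were set aside by name, and PRK and HPR, the hydroxypyruvate reductase of photorespiration, were 0.53 and 0.87 above air at 60 min, outside the window. In the chlorophyll synthesis list, 2 of 18 genes were measured, PORB and GSA1, at −0.72 and −0.52 at 30 min. Over all 2166 probe sets the median at 30 min was −0.05, and over the 64 with an air mean of 12 or more it was −0.80. The light reaction list has 5 of its 7 genes in that highest band, with a median of −0.93 there, close to that of the band as a whole.

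Other lists held no member, but few of their genes could have been one, so that this says little about them. Of 31 cell wall expansion genes, 6 were measured, with a median of 0.05 at 30 min. Only 3 of the 6 had an air mean of 6 or more. The 1 lower by 1 or more, EXPA8, is left out by name in the rule. Of the glucosinolate genes 2 of 24 were measured (median −0.0004 at 30 min), of the auxin genes 2 of 19 (−0.25), and of the clock and light-signalling genes 1 of 16, GI, at −0.54. Of those measured, 0 glucosinolate genes, 2 auxin genes and 1 clock gene had an air mean of 6 or more. Aquaporins, cuticle and lipid transfer genes, and root markers had 0 measured members each, so that the root share of each sample could not be compared. The shoot marker list had a median of 12.38 at 30 min, 13.19 at 60 min and 13.69 at 240 min of hypoxia, against 13.69 and 13.61 in air at 0 and 240 min. At 30 min, 240 min and 0 min air that median is the value of LHB1B2, itself a member picked for its low 30 min value. With LHCB4.1, 2 of the 7 genes met the numeric conditions, so the list is no separate gauge of the shoot share. The part of the shoot share in the members' lower values at 30 min was not tested.

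Near the limits of the rule, membership turned on small differences. At 30 min the closest members were 20438_at, 15521_at and AFR, which lay 1.00036, 1.00275 and 1.00694 below the lower air array. TAPX, a thylakoid ascorbate peroxidase, was left out at 0.9986, AT2G35260 at 0.9965 and the second probe set of AT2G35390 at 0.9951. On the 60 min window, AT1G79510 was inside at 0.4842 from the air mean, with 18722_s_at at 0.4786 and 18086_s_at at 0.4680, and AT2G29340, THI2.2, a thionin, and AT1G78820 were outside at 0.5162, 0.5212 and 0.5241. On the level in air, AT1G27480, 17506_s_at and AT2G35390 were the closest inside, at 6.00147, 6.17 and 6.42, and 0 named probe sets missed by level alone. On the 30 min gap and the 60 min window, each of these lay closer to its limit than the SD of 0.28 between the air arrays.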

How the data were processed

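Each of the 5 samples was measured on 1 array with biotin-labelled cRNA, per the labels' protocols, of Affymetrix make by its control names. The deposited values are on the log2 scale and cover 8297 probe sets. They were made by the authors with RMA per the submitters' processing notes, which subtracts background, quantile-normalizes the arrays and summarises probes. The software version is not given in the sources used here. Differences near the floor of the scale are compressed. The medians of the 5 columns were 5.12 to 5.14, and no further scaling was applied in the main results. The 50 control probe sets were set apart.

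Names came from a platform annotation matched to TAIR10.1 RefSeq loci: 3792 probe sets had 1 gene found there, 2 had a gene that was not, 70 had several and 4383 are unnamed here. No sequences or coordinates were used here. Differences are hypoxia minus the mean of the 2 air arrays. With 1 array per treatment and time there is no p-value, and no SD or SE over replicates. The number of arrays limits the precision. Class III peroxidases could be left out only among named probe sets.

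Named are all members with 1 gene, the members nearest each limit of the rule, and the extremes at 240 min. Other probe sets named by number, and the role groups, were chosen after their values were seen. The members, the 10 gene lists with 240 genes and the rules were chosen with earlier results of these data known. Where several probe sets read 1 gene, a list used that with the highest air mean. The selection code was run on simulated data with planted drops larger than those of most members. That checks the code only and says nothing about the members. Alternatives were the limits of the rule, quantile normalization again, centring on 9 non-plant controls (BioB, BioC, BioDn and CreX), and either air array alone. Python 3.11.15, pandas 2.3.3 and numpy 2.4.6 were used.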

Additional observations from a re-analysis of the deposited data

Results flagged for a closer look

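In 3 members the value was at least 1 below both air arrays at 30 min, as the rule requires, and at least 1 above both at 240 min. Whether the times differ was not tested, as each has 1 array. All 3 are unnamed here. By the looser limit of 1 or more above the air mean at 240 min, the share was 3.92% of the members and 3.92% of the 2166. High values at 240 min were thus no more frequent among the members than in that background. The probe set 16010_s_at was 1.45 below the air mean at 30 min and 1.25 above it at 240 min. The values at those times were −1.80 and 1.17 for 15634_s_at and −1.20 and 1.096 for 17393_at. Among the 20 probe sets nearest by number, 5 neighbours of 16010_s_at were dim (under 5.5 on the other 4 arrays), and their median difference at 240 min was −0.0048, while the others had too few dim neighbours to give a value.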

How the results depend on the processing

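Only 1 array stands for each treatment and time, so no replicate could be left out. No paired analysis was possible because each group has 1 array. The size of the set followed its limits: 164 probe sets at 0.8 below air, 22 at 1.5, and 60 with the 60 min window at 0.25. Centring on the non-plant controls shifted the median of all probe sets at 30 min to −0.34. Under it 164 probe sets met the rule, 68 of them among the 102. The 102 themselves had a median of −1.72 at 30 min and 0.31 at 60 min. The sets from the other alternatives had 94 to 136 probe sets. At 240 min the count of members 1 or more below air was 18 to 23 under these scalings and baselines, against 20. Among the 64 members with enough dim neighbours to judge, a subset added after the values were seen that can show raised surroundings but hardly lowered ones, 12 were as far below air and 1 as far above. Among the 65 whose name ends in _at alone, also added afterwards, 17 were as far below air and 1 as far above. These subset counts are over fewer members by construction, and no share over all probe sets is given for them. In 25 named genes all differences at 30 min stayed below 0 under every scaling and baseline, which the rule largely fixes. ECS1 was at −0.83 at 30 min after quantile normalization again, against −1.13. AT2G43530 was at 0.55 at 240 min against 0 min air alone and at −0.09 against 240 min air alone.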

Other observations

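Members were neighbours by probe set number at a share above the background, though most had no neighbouring member. Of the 102, 14 (13.7%) had a member as the next or previous probe set, against 4.85% of the 2166 probe sets with a mean air value of 6 or more that had a member beside them. The densest run of 16 consecutive probe sets, found after the values were seen, was numbered 18072 to 18087. It held 8 members, all of them unnamed here. Where these numbers lie on the array, and whether neighbouring members read the same gene, was not analysed here. Of the members, 30 have names ending in _s_at, the ending for probes shared by several transcripts, against 558 of the 2166.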
